A study of Mus musculus with 6 samples.

Results

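Cytosolic heat shock chaperones were examined in the prostates of TRAMP mice given OSU-CG5 or vehicle. The genes were the heat shock factor Hsf1, the HSP70 genes Hspa1a, Hspa1b and Hspa8, the HSP90 genes Hsp90aa1 and Hsp90ab1, and Hspb1, Hsph1, Dnajb1 and Bag3. They were chosen by name, and a probe set was taken where the platform annotation gave it a single symbol that was 1 of these 10. Of the 10 genes 8 had such a probe set, with 20 probe sets among the 45037 on the array. Hsf1 and Hsp90ab1 had none and were not analysed here.

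OSU-CG5 mice were TRAMP males, F1 offspring of C57BL/6 TRAMP and FvB parents, dosed by mouth at 100 mg/kg per day for 4 weeks, from 6 to 10 weeks of age. Vehicle mice had the same genotype, sex, age and schedule without the compound. In TRAMP mice the probasin promoter drives SV40 T antigens in prostate epithelium, so both groups carried the transgene and mice without it were not analysed here. RNA came from microdissected dorsal and lateral prostate lobes of 3 mice per group, collected 2 to 4 h after the last dose, with 1 Affymetrix array per mouse, and the number of arrays limits the precision. OSU-CG5 is known here by its code name. The free-text descriptions of OSU-CG5 replicates 2 and 3 each name a different compound number, and source label and title decided the group. Values are RMA signals on the log2 scale, so a difference of 1 is a doubling, and levels of different probe sets are not compared with each other.

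As background, HSF1 is held inactive by chaperones in resting cells. When unfolded proteins occupy the chaperones, it forms trimers, binds heat shock elements in promoters and raises transcription of the inducible chaperone genes. HSP70 proteins bind exposed hydrophobic stretches with ATP, J-domain proteins bring them their clients, nucleotide exchange factors release them, and HSP90 completes the folding of kinases and steroid receptors. The androgen receptor of the prostate is one such HSP90 client.

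Promoters are shown first, since HSF1 acts through promoter elements and these windows show how alike Hspa1a and Hspa1b are. RefSeq promoter windows (GRCm38.p6) were matched for 6 of the 10 genes, in 8 windows. Hsf1, Hsp90ab1, Hspa8 and Hsp90aa1 had no window. The 250 bases before each start were searched on both strands for a pair of inverted heat shock units, GAANNTTC or TTCNNGAA, each its own reverse complement. Capitals mark these matches, and only genes with a match are printed.
Hspa1a, chr17:34972157-34972406, minus strand: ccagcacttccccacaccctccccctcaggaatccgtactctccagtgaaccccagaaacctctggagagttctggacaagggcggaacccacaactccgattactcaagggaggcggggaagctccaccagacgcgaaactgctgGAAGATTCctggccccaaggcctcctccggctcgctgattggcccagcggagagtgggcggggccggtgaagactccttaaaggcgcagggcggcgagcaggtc
Hspa1b, chr17:34959239-34959488, minus strand: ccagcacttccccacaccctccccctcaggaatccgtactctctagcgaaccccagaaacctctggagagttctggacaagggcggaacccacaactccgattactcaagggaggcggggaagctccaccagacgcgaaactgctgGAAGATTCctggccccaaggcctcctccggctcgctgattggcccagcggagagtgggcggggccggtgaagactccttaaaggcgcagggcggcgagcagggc
Hspb1, chr5:135887669-135887918, plus strand: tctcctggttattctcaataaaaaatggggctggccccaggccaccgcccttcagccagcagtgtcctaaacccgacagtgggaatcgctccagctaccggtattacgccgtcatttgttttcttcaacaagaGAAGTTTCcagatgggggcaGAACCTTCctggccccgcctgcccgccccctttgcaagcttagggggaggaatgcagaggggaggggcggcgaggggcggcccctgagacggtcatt
Hsph1, chr5:149636351-149636380, minus strand: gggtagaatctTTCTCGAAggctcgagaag
Hspa1a and Hspa1b lie on chromosome 17, and their 250 upstream bases differed at 3 positions. Both had GAAGATTC, from 104 to 97 bases before the start. Hspb1, on chromosome 5, had GAAGTTTC and GAACCTTC, which end 110 and 90 bases before the start. Hsph1, also on chromosome 5, had TTCTCGAA in both of its overlapping windows. Thus 4 of the 6 genes with a window held a match, and Dnajb1 and Bag3 held none in these bases. Of the 8 member windows, 3 held GAANNTTC and 2 TTCNNGAA. Over all 32851 mouse windows, 12.8% held either form, 6.69% GAANNTTC and 7.17% TTCNNGAA. The form of 3 alternating units, which contains both pairs, was in 0 of the 8 member windows and 0.466% of all. GGGCGG was in all 8 member windows against 32.7% of all, CCAAT in 5 of 8 against 33.8%, and TATAAA in 0 of 8 against 12.4%. Each was counted on both strands, and by gene they were in 6, 4 and 0 of the 6. The 8 windows are not 8 separate promoters. Those of Hsph1 overlap, those of Hspa1a and Hspa1b are nearly alike, and the second Dnajb1 window lies inside the gene. A letter match is not a measured binding site.

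The tissue label was checked against 7 measured luminal markers, whose mean signal was 11.53 to 11.69 on OSU-CG5 arrays and 11.64 to 11.82 on vehicle arrays. Vehicle replicate 2 stood apart. Its correlations with the other arrays over all probe sets were 0.966 to 0.981, against 0.987 to 0.995 among the other 5. The mean of 5 seminal vesicle transcripts was 8.07 there and 3.72 to 5.26 on the other arrays. Of the 20 chaperone probe sets, 12 had their highest or lowest value on that array, where 53.3% of all probe sets did. Results are therefore also given without it.

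No difference between OSU-CG5 and vehicle beyond the spread between mice was found for the cytosolic chaperone transcripts. In limma with Benjamini-Hochberg adjustment over all 45037 probe sets, 0 of the 20 had an adjusted p under 0.05, the smallest being 0.257, and 0 of all probe sets passed. At an unadjusted p under 0.05, 1 of the 20 was called, a dim probe set of Hspa8, against 16.4% of all probe sets (9.63% higher and 6.8% lower). Every OSU-CG5 array lay on one side of every vehicle array for 0 of the 20, against 23.6% of all probe sets. Each gene's brightest probe set, by its mean over the 6 arrays, is called its leading probe set. By these, 3 genes read higher with OSU-CG5 and 5 lower. Their median log2 difference was -0.03, beside -0.09 over all 18193 genes. The 8 differences ran from -0.24 to 0.19, or 0.846-fold to 1.14-fold. All 8 of their 95% intervals included no change, and 7 lay within 1.5-fold in either direction. The exception was Hspb1, whose interval reached down to 0.665-fold.

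**Figure D1:**
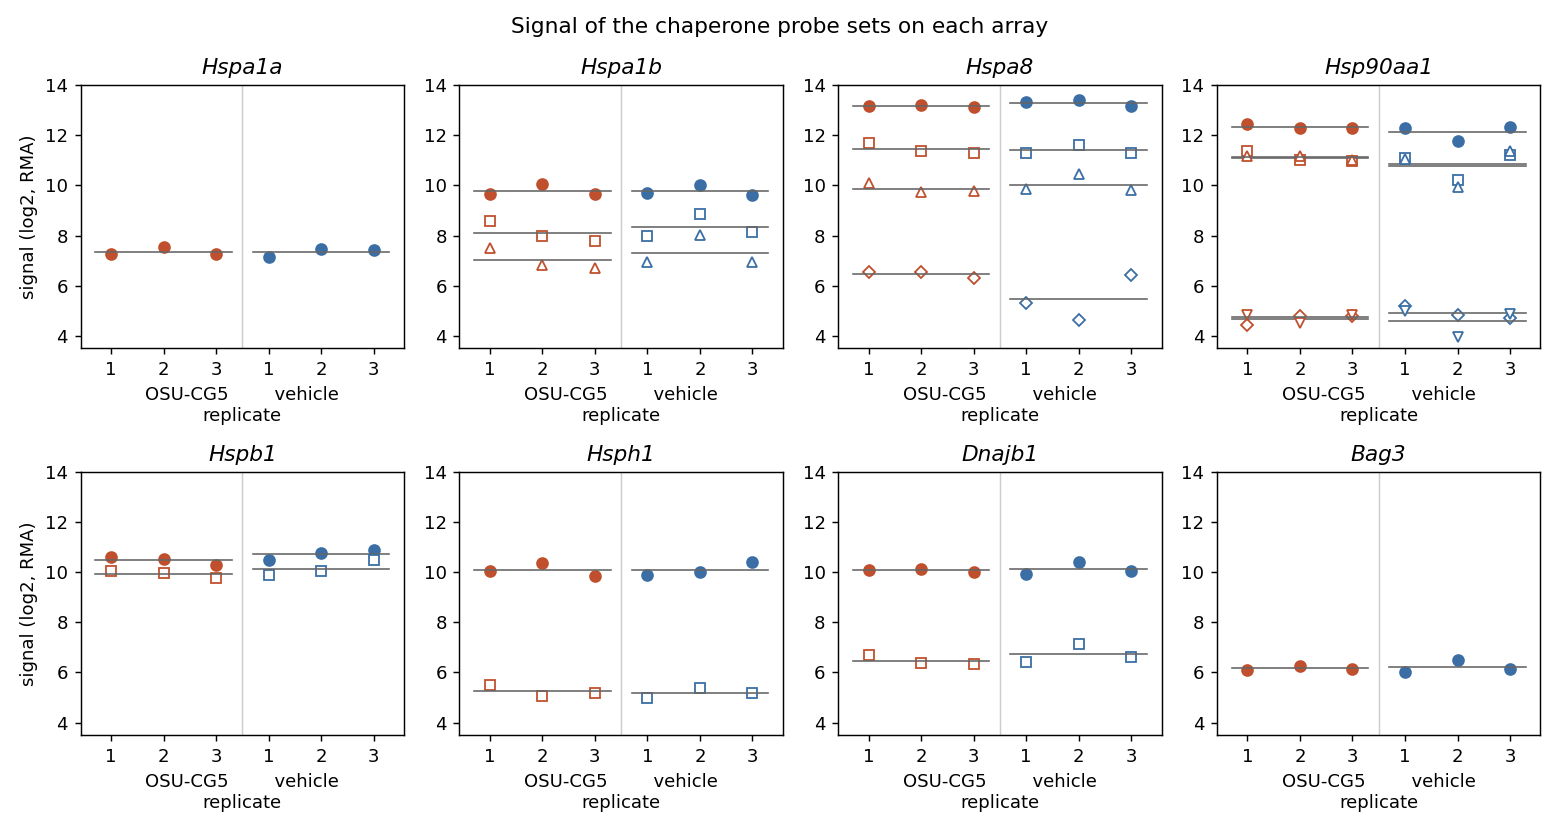
Signal of all 20 probe sets of the 8 genes on each array (log2, RMA), with OSU-CG5 arrays in orange left of vehicle arrays in blue. Filled circles are the leading probe set of each gene, open symbols its other probe sets, and lines group means over 3 arrays. The groups overlap for every probe set, and vehicle replicate 2 stands apart for several.

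Hspa1a and Hspa1b encode the stress-inducible HSP70, whose transcripts are commonly used as a readout of HSF1 activity. Hspa1a (1452388_at) read 7.25, 7.54 and 7.28 on OSU-CG5 arrays and 7.14, 7.45 and 7.42 on vehicle arrays. The groups overlapped throughout, with the highest value in OSU-CG5 replicate 2 and the lowest in vehicle replicate 1. The means were 7.36 ± 0.16 and 7.34 ± 0.17 (SD, n = 3 each) in OSU-CG5 and vehicle, a 1.01-fold difference with a 95% interval of 0.812 to 1.26 (limma adjusted p = 0.957).

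Hspa1b gave the same picture on its leading probe set (1452318_a_at), with 9.65, 10.05 and 9.66 on OSU-CG5 arrays and 9.68, 10.03 and 9.63 on vehicle arrays. In each group replicate 2 was the highest, and the replicate numbers do not pair mice. The log2 difference was 0.01 (SE 0.16), with an interval of 0.774-fold to 1.30-fold. All 3 Hspa1b probe sets are annotated to the same source sequence. The other pair, 1427126_at and 1427127_x_at, differed from the leading one in which arrays were high, and had their highest value in vehicle replicate 2 and their lowest in OSU-CG5 replicate 3. The first read 7.50, 6.83 and 6.70 on OSU-CG5 arrays against 6.93, 8.004 and 6.94 on vehicle arrays. Their log2 differences were -0.28 (SE 0.32) and -0.22 (SE 0.27), and without vehicle replicate 2 they were 0.08 and 0.05. Since the genes are close copies, signal from one could add to a probe set named for the other, and these values are best read for the pair. Immediate early genes, which respond to handling as HSP70 genes can, lay below 0 for 10 of 10 markers, with a median of -0.23 and 1 lower at an unadjusted p under 0.05, where 65.7% of all genes lay below 0 and 8.43% were called lower. Their mean signal was 6.39 to 6.69 on OSU-CG5 arrays and 6.64 to 7.13 on vehicle arrays, and their part in the HSP70 values was not tested.

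Hspa8 encodes HSC70, the constitutive HSP70 of the cytosol, which also serves chaperone-mediated autophagy and clathrin uncoating. Its leading probe set (1455789_x_at) read 13.15, 13.20 and 13.13 on OSU-CG5 arrays and 13.31, 13.38 and 13.16 on vehicle arrays. Vehicle replicate 3 lay among the OSU-CG5 values. The difference was 0.919-fold (log2 difference -0.12, SE 0.11), with an interval of 0.766 to 1.10. The next probe sets, 1420623_x_at and 1420622_a_at, differed by 0.06 (SE 0.15) and -0.16 (SE 0.20) on the log2 scale.

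The last Hspa8 probe set, 1431182_at, differed from these. It read 6.53, 6.56 and 6.30 on OSU-CG5 arrays and 5.30, 4.64 and 6.43 on vehicle arrays. Vehicle replicate 3 lay within the OSU-CG5 values, and the other vehicle arrays were lower. The log2 difference was 1.01 (SE 0.38), a 2.01-fold difference with an unadjusted p of 0.0284 and an adjusted p of 0.257 in limma. The vehicle SD was 0.90 and the OSU-CG5 SD 0.14 (n = 3 each). Leaving out vehicle replicate 2 gave a log2 difference of 0.60, with an adjusted p of 0.333 in limma. Leaving out vehicle replicate 3 gave 1.49 with an adjusted p of 0.0336, the one setting tried in which any of the 20 probe sets passed. Over the 4 probe sets of Hspa8 the log2 differences thus spanned 1.17, from -0.16 to 1.01, and which transcript form 1431182_at reads was not tested.

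Dnajb1 encodes HSP40, the J-domain partner that hands clients to HSP70 and is itself an HSF1 target. Its leading probe set (1416755_at) read 10.09, 10.14 and 9.99 on OSU-CG5 arrays and 9.94, 10.39 and 10.04 on vehicle arrays. The vehicle values enclosed the OSU-CG5 values, and the difference was 0.964-fold, with an interval of 0.767 to 1.21. The dimmer probe set, 1416756_at, differed by -0.27 (SE 0.20), and by -0.06 without vehicle replicate 2, where it was highest.

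Hsph1, or HSP110, and Bag3 are nucleotide exchange factors of HSP70, and Bag3 also directs clients to autophagy. Hsph1 (1425993_a_at) read 10.06, 10.35 and 9.86 on OSU-CG5 arrays and 9.87, 10.01 and 10.39 on vehicle arrays. The groups covered nearly the same range, and the difference was 0.998-fold, with an interval of 0.752 to 1.32. Its other probe set, 1423566_a_at, differed by 0.07 (SE 0.16). Bag3, with 1 probe set (1422452_at), read 6.11, 6.26 and 6.12 on OSU-CG5 arrays and 6.01, 6.49 and 6.14 on vehicle arrays. Here too the vehicle values enclosed the others, and the difference was 0.968-fold (interval 0.764 to 1.22).

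Hsp90aa1 encodes the inducible cytosolic HSP90. Its leading probe set (1438902_a_at) read 12.43, 12.27 and 12.28 on OSU-CG5 arrays and 12.30, 11.76 and 12.34 on vehicle arrays. Vehicle replicate 2 was low and the other vehicle arrays lay within the OSU-CG5 range. The means were 12.33 ± 0.09 with OSU-CG5 and 12.14 ± 0.32 with vehicle (SD, n = 3 each), a 1.14-fold difference with an interval of 0.870 to 1.49.

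In the next probe sets the same array was lowest. 1437497_a_at read 11.18, 11.15 and 11.02 on OSU-CG5 arrays and 11.05, 9.95 and 11.35 on vehicle arrays, and 1426645_at read 10.97 to 11.35 on OSU-CG5 arrays and 11.11, 10.20 and 11.19 on vehicle arrays. Their log2 differences were 0.33 (SE 0.32) and 0.27 (SE 0.26). Without vehicle replicate 2 they were -0.09 and -0.04, and that of the leading probe set was 0.00. The 2 dimmest probe sets, 1433251_at and 1441827_x_at, had means of 4.79 and 4.67 over the arrays and differed by -0.26 and 0.13.

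Hspb1, or HSP25, is a small heat shock protein that holds unfolded proteins without ATP and binds actin filaments, and it is abundant in smooth muscle as well as in epithelium. Its leading probe set (1422943_a_at) read 10.62, 10.53 and 10.27 on OSU-CG5 arrays and 10.49, 10.77 and 10.89 on vehicle arrays. OSU-CG5 replicate 3 was lowest, and vehicle replicate 1 lay among the OSU-CG5 values. The means were 10.47 ± 0.18 with OSU-CG5 and 10.71 ± 0.21 with vehicle (SD, n = 3 each), 0.846-fold (-0.24 on the log2 scale, SE 0.15, with an adjusted p of 0.449 in limma). The other probe set, 1425964_x_at, differed by -0.21 (SE 0.17). The differences of this pair were 0.03 apart, and without vehicle replicate 2 they were -0.21 and -0.26. In whole tissue, fewer cells of a type and less RNA per cell cannot be told apart. Of 9 smooth muscle markers 8 lay below 0, 5 of them at an unadjusted p under 0.05, against 65.7% of all genes below 0 and 8.43% called lower. Their mean signal was 9.19 to 9.48 on OSU-CG5 arrays and 9.44 to 9.73 on vehicle arrays. Endothelial markers lay below 0 in 7 of 7 cases, 6 of them at that threshold, with a mean of 5.24 to 5.34 on OSU-CG5 arrays and 5.52 to 5.79 on vehicle arrays. Macrophage markers did so in 7 of 7 cases, 4 at that threshold, with a mean of 6.83 to 7.19 on OSU-CG5 arrays and 7.31 to 7.75 on vehicle arrays. Luminal epithelial markers lay below 0 in 5 of 7 cases, 0 of them at that threshold, with a median log2 difference of -0.20. Basal epithelial and fibroblast markers did so in 5 of 6 cases each, 1 of each at that threshold. Lymphocyte markers did so in 5 of 6 cases, 2 at that threshold. The part of these cell types in the Hspb1 values was not tested.

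**Figure D2:**
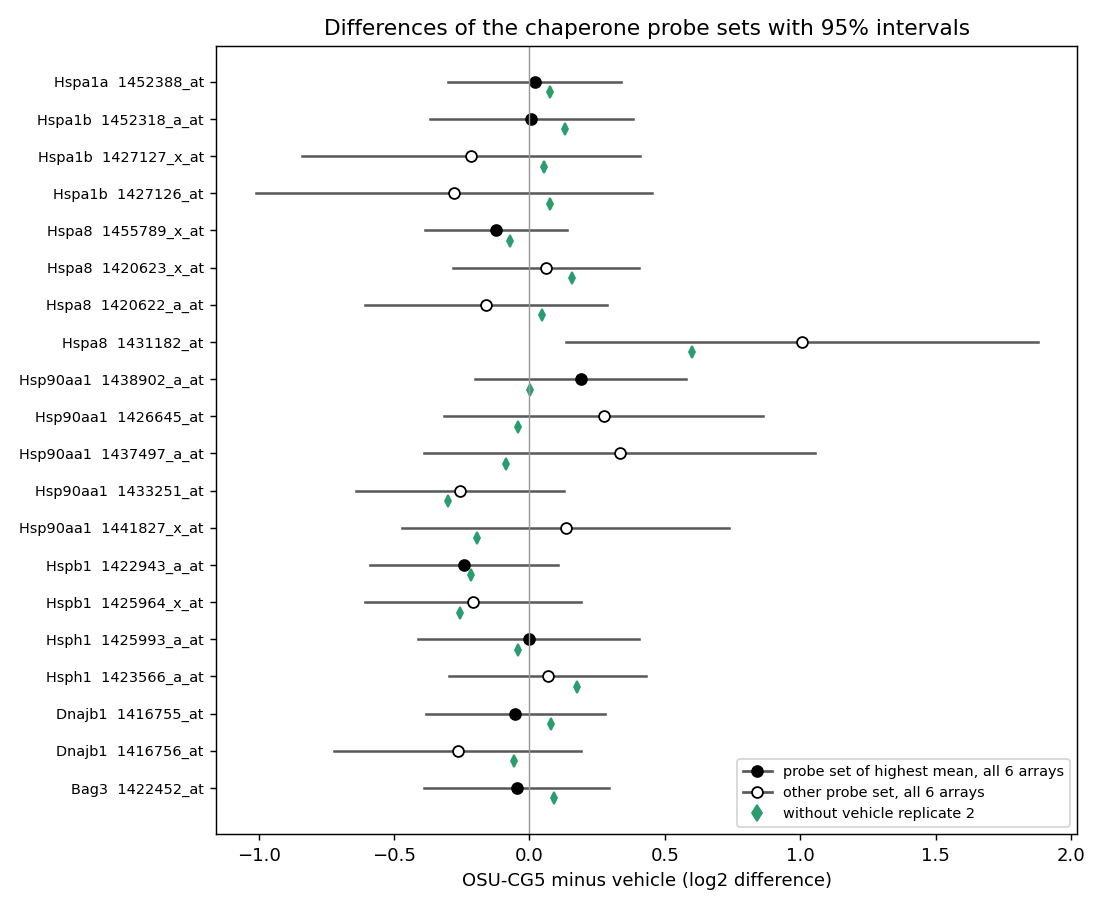
Log2 difference of each of the 20 probe sets, OSU-CG5 minus vehicle, with 95% intervals from limma over 6 arrays. Filled circles are leading probe sets, open circles other probe sets, and green diamonds the difference without vehicle replicate 2. Only the interval of 1431182_at of Hspa8 leaves out 0, and the Hsp90aa1 differences above 0 shrink to 0.00 or turn below 0 without that array.

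Within genes, probe sets agreed in direction for Hspb1 and Dnajb1 and not for Hspa1b, Hspa8, Hsp90aa1 and Hsph1. For 16 of the 20 probe sets the difference between groups was smaller than the larger of the group SDs. The vehicle SD was the larger for 17 of the 20, as for 64.9% of all probe sets. Without vehicle replicate 2, 8 of the 20 probe sets and 2 of the 8 leading ones, those of Dnajb1 and Bag3, changed sign. The leading differences then ran from -0.21 to 0.13, with a smallest unadjusted p of 0.222. As a check of RNA integrity, the 3' minus 5' control signal for Gapdh averaged 2.89 ± 0.16 with OSU-CG5 and 2.39 ± 0.32 with vehicle (log2, SD, n = 3). The exact permutation test, two-sided, gave p = 0.2, and 3 against 3 arrays cannot go below 0.1. For Actb the same measure averaged 3.03 ± 0.07 with OSU-CG5 and 2.99 ± 0.13 with vehicle (exact permutation p = 0.6). The part of RNA integrity in any of these values was not tested.

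Other chaperone genes were read by their leading probe sets from 7 lists of partners and relatives. Of 61 genes 59 were measured. Their median log2 difference was -0.04, and 0 passed the adjusted threshold, with a smallest adjusted p of 0.159. At an unadjusted p under 0.05, 10 of 59 (16.9%) were called, 6 higher and 4 lower, against 13.8% of all leading probe sets, with 5.4% higher and 8.43% lower. For 13 of the 59 every OSU-CG5 array lay on one side of every vehicle array, against 22.3% of all leading probe sets. Without vehicle replicate 2, 8 of 59 (13.6%) had an unadjusted limma p under 0.05, against 15.2% of all probe sets. Of these 8 genes, 7 were among the 10 above.

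Of HSP70 relatives and exchange factors, 2 of 15 were higher at an unadjusted p under 0.05 and 0 lower, against 5.4% and 8.43% of all leading probe sets. Hspa4, an HSP110-type exchange factor related to Hsph1, read 10.30, 10.28 and 10.34 on OSU-CG5 arrays and 9.84, 10.15 and 9.84 on vehicle arrays. The groups did not overlap, as for 22.3% of all leading probe sets, and the log2 difference was 0.36 (SE 0.13, limma adjusted p = 0.235). Its 3 other probe sets differed by 0.20, 0.34 and 0.59, all in that direction. Bag5, another exchange factor, differed by 0.31 (SE 0.13) on its leading probe set and by -0.25 (SE 0.17) on its dimmer one. Bag6, a chaperone of tail-anchored proteins, differed by -0.28 (SE 0.15).

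Of 9 cytosolic J-domain genes, 1 was higher and 0 lower at that threshold, against 5.4% and 8.43% of all leading probe sets. Dnaja1, a farnesylated partner of HSC70, read 11.00, 11.04 and 10.79 on OSU-CG5 arrays and 10.66, 10.08 and 10.51 on vehicle arrays. It did not overlap between groups, as for 22.3% of all leading probe sets. Its log2 difference was 0.53 (SE 0.17, limma adjusted p = 0.215), or 0.36 without vehicle replicate 2, its lowest array. Its other probe sets differed by 0.27 and 0.25. The ribosome-associated Dnajc2 differed by 0.19 (SE 0.11) and Dnajb5 by -0.29 (SE 0.14). The other Dnajc2 probe sets differed by 0.24, -0.09 and -0.19, and those of Dnajb5 by 0.06 and -0.23.

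Of 11 measured HSP90 co-chaperone genes, 2 were higher and 0 lower at that threshold, against 5.4% and 8.43% of all leading probe sets. Cdc37l1, a relative of the kinase-loading co-chaperone Cdc37, read 9.79, 9.73 and 9.60 on OSU-CG5 arrays and 9.27, 8.47 and 9.41 on vehicle arrays. The groups did not overlap, as for 22.3% of all leading probe sets, with vehicle replicate 2 far below the rest. The log2 difference was 0.65 (SE 0.23; limma adjusted p = 0.24), and 0.36 without that array. Of its 5 other probe sets, 4 differed by 0.26 to 0.40 and the dimmest by -0.21. Chordc1, an HSP90 partner, differed by 0.38 (SE 0.16), and by 0.24 (unadjusted p = 0.133 in limma) without vehicle replicate 2. Ahsa2, of the family that stimulates the HSP90 ATPase, differed by 0.23 (SE 0.14).

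Among the heat shock factors, Hsf4, best known from the lens, had a log2 difference of -0.34 (SE 0.12; unadjusted p = 0.0243 in limma), with 5.11, 5.41 and 5.24 on OSU-CG5 arrays against 5.57, 5.66 and 5.54 on vehicle arrays. Hsf2, which can pair with HSF1, had a log2 difference of 0.65 (SE 0.30), and 0.28 without vehicle replicate 2. It read 5.48, 5.34 and 5.75 on OSU-CG5 arrays and 5.08, 4.12 and 5.42 on vehicle arrays. The other Hsf2 probe set differed by -0.01 (SE 0.13). These leading probe sets of Hsf4 and Hsf2 had low means, 5.42 and 5.20 over the arrays. Hsbp1, which binds HSF1 trimers, differed by 0.06 (SE 0.11), and by -0.18 (SE 0.11) on its other probe set.

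Of 8 genes listed by symbol as small heat shock genes other than Hspb1, 6 lay below 0, a share of 75% against 65.7% of all genes. Hspb11, 1 of the 2 above 0, was included by its symbol and not checked as a member of the family. The median log2 difference of the 8 was -0.29, against -0.09 over all genes. An unadjusted p under 0.05 was reached by 3, all lower, where 8.43% of all leading probe sets were called lower. Only 1 small heat shock gene reached it with cyclic loess, with no moderation, or without OSU-CG5 replicate 3 or vehicle replicate 1. The count was also 1 among probe sets of a mean of at least log2 6, where Hspb3 and Hspb7 were not tested. With repeated quantile normalization, or without OSU-CG5 replicate 1 or vehicle replicate 2, 2 genes reached it. With array quality weights 4 did. Hspb6, or HSP20, a relaxation-linked protein of smooth and striated muscle, read 8.03, 8.03 and 7.94 on OSU-CG5 arrays and 8.33, 8.97 and 8.96 on vehicle arrays. No value overlapped, as for 22.3% of all leading probe sets. The log2 difference was -0.75 (SE 0.18), or 0.594-fold (limma adjusted p = 0.159). Without vehicle replicate 2 it was -0.64 (unadjusted p = 0.00483). Hspb3 and Hspb7, small heat shock proteins of muscle, differed by -0.34 (SE 0.14) and -0.32 (SE 0.14) at low signal. Without vehicle replicate 2 they differed by -0.25 (unadjusted p = 0.105 in limma) and -0.32 (unadjusted p = 0.0625 in limma). The other Hspb7 probe sets differed by -0.19 and -0.01. All 9 skeletal muscle markers also lay below 0, 7 at an unadjusted p under 0.05 against the same 8.43%, with a mean signal of 4.77 to 5.50 on OSU-CG5 arrays and 5.63 to 6.23 on vehicle arrays. The part of these and of the smooth muscle, endothelial and macrophage markers in the small heat shock values was not tested.

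**Figure D3:**
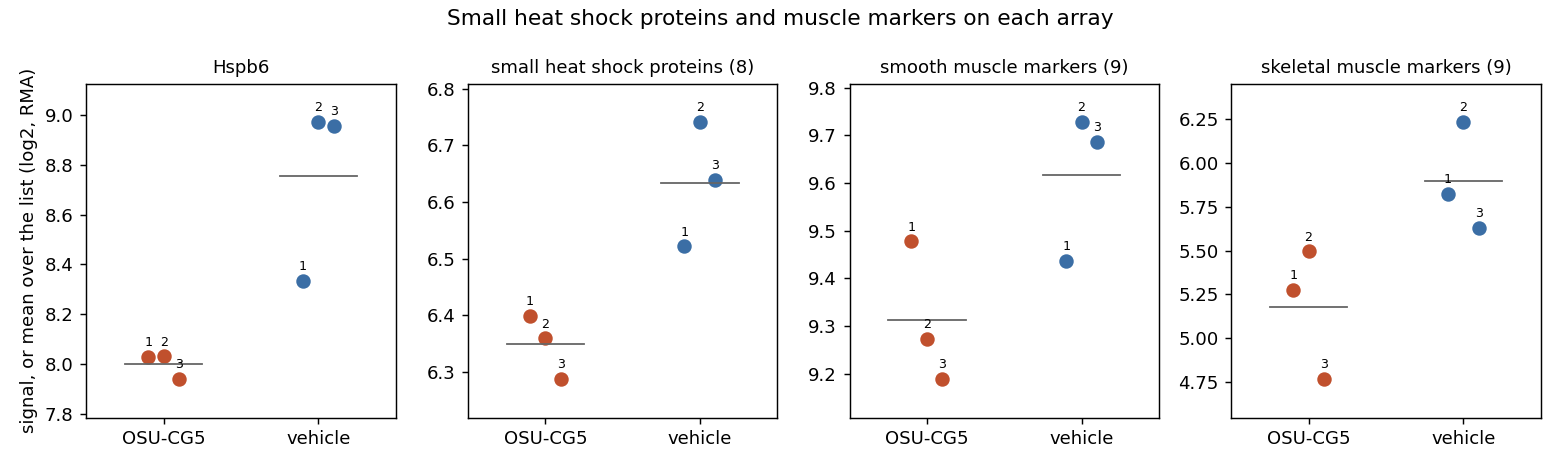
Signal of Hspb6 and mean signal of 8 small heat shock genes, 9 smooth muscle markers and 9 skeletal muscle markers on each array (log2, RMA), OSU-CG5 in orange left of vehicle in blue, with replicate numbers above the points and lines at group means. The axes do not start at 0. The groups overlap for the smooth muscle markers and not in the other panels. The mean over all 18193 genes did not overlap either, at 6.354 to 6.359 on OSU-CG5 arrays and 6.38 to 6.45 on vehicle arrays.

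TRiC is the cytosolic chaperonin that folds actin and tubulin. Of 8 subunits 0 were called at an unadjusted p under 0.05, against 13.8% of all leading probe sets. Their differences ran from -0.20 for Cct2 to 0.23 for Cct8. The other Cct2 probe sets differed by -0.27 and 0.00, and the other Cct8 probe set, at low signal, by -0.11. Cct3 differed by -0.15 (SE 0.14). Of 4 mitochondrial chaperones 1 was called, Hspd1 (HSP60), against 13.8% of all leading probe sets. It read 11.57, 11.69 and 11.68 on OSU-CG5 arrays and 11.19, 11.39 and 11.41 on vehicle arrays. Its log2 difference was 0.32 (SE 0.12; limma adjusted p = 0.256), while its partner Hspe1 (HSP10) differed by -0.12 (SE 0.20) and by -0.38 (SE 0.15) on its other probe set. Hspa9, the mitochondrial HSP70, differed by 0.13 (SE 0.12), and its other probe sets by 0.27, -0.25, -0.12 and -0.21.

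**Figure D4:**
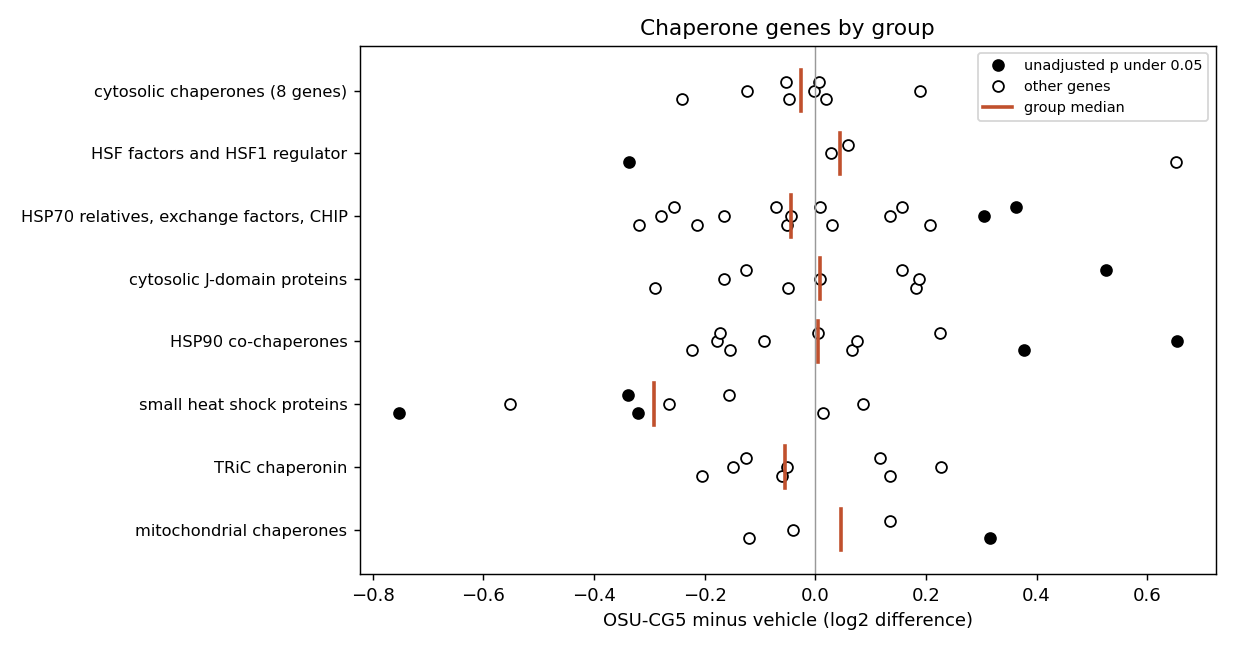
Log2 difference, OSU-CG5 minus vehicle, of the leading probe set of each chaperone gene by group. Each point is a gene, filled where the unadjusted limma p is under 0.05, and orange lines are group medians. The 8 cytosolic chaperones lie between -0.24 and 0.19 with none filled, and the small heat shock proteins have the lowest median, -0.29.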

How the data were processed

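Expression was measured on 6 Affymetrix arrays, 3 OSU-CG5 and 3 vehicle, grouped by the tissue source label. OSU-CG5 replicates 2 and 3 each carry a different compound number in their free-text description. Source label and title decided the group. The deposited signals are on the log2 scale, 1 value per probe set, made with RMA per the submitters' processing notes. The sources used here do not give its software or version. RMA puts the probe intensities of all arrays on a common distribution, so a broad shift in 1 direction is partly removed. The deposited probe set values still differed between arrays, with medians from 5.30 to 5.38. Repeating quantile normalization on them gave log2 differences of -0.06 for Hspa1a and -0.05 for the leading probe set of Hspa1b. No raw intensities were used.

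Of 45101 rows 64 controls were left out. Probe sets were named from the platform annotation, where 34945 had a single symbol, 932 several and 9160 none here. OSU-CG5 was compared with vehicle in limma 3.58.1 (lmFit, eBayes; R 4.3.3) without a filter, and p-values were adjusted by Benjamini-Hochberg over 45037 probe sets at 0.05. SE is the moderated standard error and intervals are its 95% t intervals. The procedure was tested on simulated data. All members and, in each list, the 3 genes of smallest unadjusted p were named. The members and lists were chosen with earlier results of these data known.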

Additional observations from a re-analysis of the deposited data

How the results depend on the processing

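The main counts were 0 probe sets at an adjusted p under 0.05, 7399 at an unadjusted p under 0.05, 1 of 20 cytosolic chaperone probe sets and 10 of 59 other chaperone genes at an unadjusted p under 0.05, and a median of -0.03 over the 8 genes. With probe sets of a mean of at least log2 6 the unadjusted count was 3360 (19.1% of 17617, against 16.4% in the main fit). That of the cytosolic chaperones was 0 of the 16 left, which leave out 1431182_at of Hspa8 (mean 5.96). That of other chaperone genes was 5 of the 47 left (10.6%). With 1 probe set per gene the unadjusted count was 2661 (14.6% of 18193) and that of the cytosolic chaperones 0. Fewer probe sets were tested in both settings. With no moderation the chaperone counts were 0 and 6. The 6 were 10.2% of the other chaperone genes, against 12.1% of all probe sets. With array quality weights 822 probe sets passed adjustment, none of them a cytosolic chaperone, and the median was 0.0469. Leaving out 1 array at a time gave adjusted counts from 0 to 885 (400 without vehicle replicate 2, 885 without vehicle replicate 3), unadjusted counts from 4663 (without OSU-CG5 replicate 3) to 9692 (without vehicle replicate 3), cytosolic chaperone counts from 0 to 1, medians from -0.112 to 0.0393 and other chaperone counts from 3 to 10. The last was 3 (5.08%) without OSU-CG5 replicate 3, 5 (8.47%) without OSU-CG5 replicate 2 and 6 (10.2%) without vehicle replicate 1. In these settings 10.4%, 10.8% and 14.2% of all probe sets were called. The count of 10, without vehicle replicate 3, was 16.9%, against 21.5% of all probe sets. The causes of the changes under the other settings were not tested. Of 264 values of single cytosolic chaperone probe sets under alternatives 27 changed sign, and 1 passed adjustment, 1431182_at of Hspa8 without vehicle replicate 3. Of 290 values of the named other chaperones 2 changed sign and 0 passed adjustment; these alternatives were chosen after seeing the data. No paired analysis was possible because the replicate numbers follow accession order and pair no mice.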
